A study of Mus musculus with 6 samples.

Results

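Genes of 7 surface molecules by which satellite cells (SCs), the stem cells of skeletal muscle, are recognised or followed, and of 1 ligand, were compared between SCs with and without an induced deletion in the NF-YA gene. The genes are Calcr, Met, its ligand Hgf, Sdc3, Sdc4, Vcam1, Ncam1 and Cd34, taken by name from a fixed list and making up 8 of the 35976 genes in the tables. NF-YA is the subunit through which the NF-Y trimer binds its DNA sequence, the CCAAT box. RNA-seq was available for 3 NF-YAcKO and 3 NF-YAfl/fl libraries of mouse SCs. NF-YAcKO mice carried floxed NF-YA alleles and Pax7-CreERT2, a recombinase made in Pax7-expressing cells and switched on by tamoxifen, while NF-YAfl/fl mice carried the floxed alleles without Cre. Both genotypes were treated at an age of 5 to 7 weeks with tamoxifen, dissolved at 20 mg/ml. SCs were prepared from digested hindlimb muscle by magnetic removal of CD31, CD45, CD11b and Sca1 positive cells and were grown with FGF-2, so the RNA is that of cultured cells and not of quiescent SCs on the fibre.

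CALCR is the calcitonin receptor, which is made by quiescent SCs and helps to keep them out of the cell cycle. MET is the receptor tyrosine kinase for HGF, a growth factor held on the heparan sulfate of the matrix, which activates SCs and draws them to injury. SDC3 and SDC4 are syndecans, transmembrane proteoglycans that present such heparan sulfate-bound factors to their receptors. VCAM1 is an immunoglobulin-type adhesion molecule that binds the integrin pair ITGA4 and ITGB1. NCAM1 binds itself on neighbouring cells, carries polysialic acid and is present on myoblasts and young fibres. CD34 is a sialomucin of quiescent SCs that is also found on endothelial and mesenchymal progenitor cells.

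The genes lie on chromosomes 1 (Cd34), 2 (Sdc4), 3 (Vcam1), 4 (Sdc3), 5 (Hgf), 6 (Calcr and Met) and 9 (Ncam1). On GRCm38, Met spans positions 17463800 to 17573980 of the plus strand of chromosome 6, and Ncam1 spans 49502136 to 49798925 of the minus strand of chromosome 9. Because NF-Y is the perturbed factor, the promoters were searched for CCAAT on either strand (CCAAT or ATTGG). RefSeq windows of 300 bases, 250 before and 50 after the start, were given for 6 members with 8 starts, and none for Vcam1 or Ncam1. The box was in 1 of the 8 windows, that of an Hgf start, beside 37.4% of 32851 promoter windows of the mouse. A longer form, CCAATCA or CCAATGA on either strand, which contains the box, was in none of the 8, beside 11.6% of all windows. The start of Met differs between the annotations, at 17463957 in RefSeq and at 17463800 in GENCODE, 157 bases further upstream. The 93 bases of the Met window in front of both starts are shown because Met differed most between the genotypes. They had a GC content of 75.3% and held no CCAAT, so no letters are in capitals. The short stretches of the Hgf window show its boxes, which are read as ATTGG on the gene's strand, in capitals, at positions 12 to 16 and 43 to 47 from the start. A match or its absence in these windows describes the letters only. The sequences are from RefSeq on GRCm38.p6, plus strand, at chr6:17463707-17463799 for Met, chr5:16553501-16553515 for the first Hgf box and chr5:16553532-16553544 for the second.
Met upstream: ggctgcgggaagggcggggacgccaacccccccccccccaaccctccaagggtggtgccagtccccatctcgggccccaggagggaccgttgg
Hgf box 1: ggcgaATTGGtgttc
Hgf box 2: tagcgATTGGgct

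The libraries held 26936230 to 41118984 expected counts. A transcript of the deleted allele took 22.3% to 34.2% of the Nfya counts in NF-YAcKO libraries and none in NF-YAfl/fl libraries. The other Nfya counts of the NF-YAcKO libraries were assigned to other Nfya entries, and the whole of Nfya was at 27.5 ± 0.874 and 28.7 ± 7.20 CPM, counts scaled to each library's total (SD, n = 3, log2 fold change -0.06, edgeR FDR = 0.814). Pax7, the SC transcription factor, was at 146 to 201 CPM in NF-YAcKO and at 73.5 to 105 CPM in NF-YAfl/fl, without overlap and inside the limit on the fold change (log2 fold change 0.94, edgeR FDR = 0.00624). Myod1, the myoblast factor, was at 510 to 627 CPM and at 295 to 1146 CPM. Myog, a gene of differentiating cells, was at 10.7 to 31.4 CPM in NF-YAcKO and at 584 to 1450 CPM in NF-YAfl/fl. Xist was at 836 to 852 CPM in every NF-YAcKO library and at 0.306 to 0.475 CPM in NF-YAfl/fl, and the Y-linked Ddx3y was at 81.0 to 88.6 CPM in NF-YAfl/fl and at no more than 3 counts in NF-YAcKO, so the sex of the cells and the genotype cannot be told apart in any result below. The Methods name male mice for the tamoxifen treatment. The labels do not say whether the libraries of a genotype came from separate mice, and p-values measure the spread between these libraries. In such bulk RNA, fewer cells of a type and less RNA per cell cannot be told apart.

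Of the 8 genes, 7 were expressed enough to be tested, and they did not move together. Met, at 4.15-fold, was higher in NF-YAcKO SCs, and Ncam1, at 3.10-fold, was lower. The other 5 tested members (Hgf, Sdc3, Sdc4, Vcam1 and Cd34) were not called. A gene was called at a false discovery rate (FDR, the Benjamini-Hochberg adjusted p of edgeR's quasi-likelihood test over 17348 genes) under 0.01 with a log2 fold change above 1 or below -1. By that rule 4.65% of all tested genes were higher and 7.67% were lower, and 1 member in each direction is too few to be read against these shares. At the same FDR without a limit on fold change, 3 members (Met, Sdc4 and Ncam1) passed, beside 20.3% of all tested genes. The CPM of the genotypes did not overlap for 4 of the 7 members, Met, Sdc4 and Vcam1 being above and Ncam1 below. Of all tested genes, 29.1% lay above and 26.2% below without overlap.

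**Figure D1:**
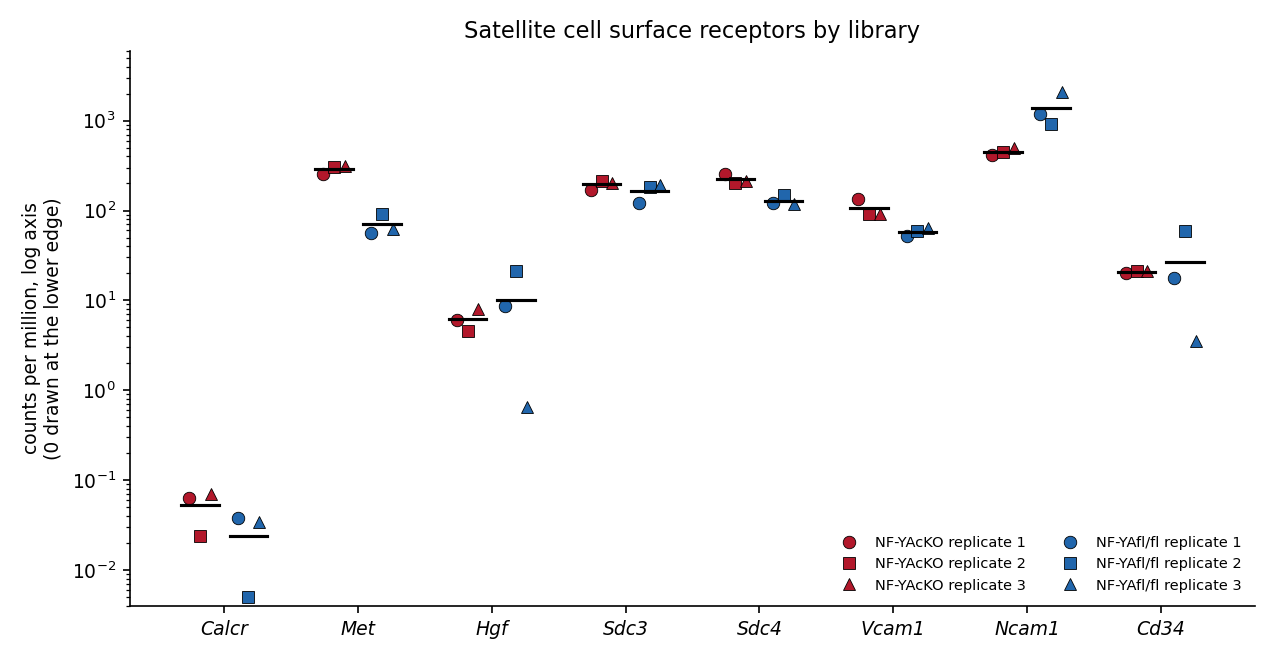
CPM (log axis) of the 8 members in each library, with NF-YAcKO in red, NF-YAfl/fl in blue, a marker shape for each replicate and a black line at the mean of 3. Met lies above and Ncam1 below the control libraries, Hgf and Cd34 are scattered over the NF-YAfl/fl libraries only, and Calcr stays near 0.

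Compared within a genotype as TPM, which is scaled to transcript length, the members covered a wide range of levels. In NF-YAfl/fl, Ncam1 was the most abundant with 266 ± 62.4 TPM (SD, n = 3 here and below), followed by Sdc4 (65.0 ± 20.7), Sdc3 (40.7 ± 12.8), Vcam1 (20.5 ± 3.86), Cd34 (14.7 ± 17.3), Met (12.7 ± 5.69), Hgf (5.20 ± 5.78) and Calcr (0.007 ± 0.006). Of these neighbours, the library ranges were separate between Ncam1 and Sdc4, between Sdc3 and Vcam1, and between Hgf and Calcr. Cd34 was above Met in 1 of 3 libraries only. In NF-YAcKO, Sdc4 came first (105 ± 20.1 TPM), followed by Ncam1 (78.4 ± 9.67), Met (47.8 ± 4.81), Sdc3 (44.4 ± 3.11), Vcam1 (35.1 ± 10.9), Cd34 (9.50 ± 0.70), Hgf (2.64 ± 0.87) and Calcr (0.017 ± 0.006). There the ranges of Sdc4 and Ncam1, of Met and Sdc3, and of Sdc3 and Vcam1 overlapped, although Sdc4 was above Ncam1 within each of the 3 libraries. By mean TPM, Met stood in the sixth place in the control cells and in the third place in NF-YAcKO cells. Its place behind Cd34 in the control cells rests on NF-YAfl/fl replicate 2, where Cd34 was at 34.3 TPM.

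Met was the member with the largest difference. Its level was 254.5, 306 and 315 CPM in the NF-YAcKO libraries and 56.7, 91.6 and 62.5 CPM in the NF-YAfl/fl libraries. Every NF-YAcKO library was above every control library, the lowest of them by far more than the spread within either genotype. The log2 fold change was 2.05 ± 0.20 (SE, edgeR FDR = 0.00073). Met was called under all 16 alternative settings, with log2 fold changes of 1.91 to 2.28. Its main transcript, NM_008591.2, whose annotated protein has 1379 residues, held 81.2% ± 3.03 of the Met TPM in NF-YAcKO and 79.7% ± 17.5 in NF-YAfl/fl (exact permutation test, p = 1). That form alone was at 38.8 ± 3.997 TPM and 10.4 ± 6.19 TPM.

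Hgf, which encodes the ligand of MET, was low in most libraries. It was at 6.09, 4.58 and 8.01 CPM in NF-YAcKO and at 8.64, 21.2 and 0.645 CPM in NF-YAfl/fl. The genotypes overlapped, and the control libraries alone differed 32.9-fold between the highest and the lowest, beside 1.75-fold in NF-YAcKO. The log2 fold change was -0.71 ± 0.93 (SE, edgeR FDR = 0.574), and it was 0.42 without NF-YAfl/fl replicate 2 and -1.27 without NF-YAfl/fl replicate 3. Met was thus higher in each NF-YAcKO library, while no direction could be given for its ligand.

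Of 26 other tested genes of HGF activation and MET signalling, 2 were called higher and 1 lower, with a median log2 fold change of 0.11 beside -0.016 for all tested genes. Plaur, the receptor that holds urokinase on the cell surface, was at 126, 112 and 111 CPM in NF-YAcKO and at 48.7, 58.0 and 27.7 CPM in NF-YAfl/fl (log2 fold change 1.38 ± 0.25 SE, edgeR FDR = 0.00646). Plau, urokinase itself, one of the proteases that can activate pro-HGF, was at 104 to 120 CPM and at 81.7 to 111 CPM and was not called (0.17 ± 0.13 SE, edgeR FDR = 0.35). Spint1, an inhibitor of the HGF activator, was higher at a low level, with 7.46, 2.58 and 5.24 CPM against 0.726, 0.803 and 0.407 CPM (2.97 ± 0.47 SE, edgeR FDR = 0.00367). Its relative Spint2 was not called (0.35 ± 0.68 SE, edgeR FDR = 0.71).

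Mst1r encodes RON, the receptor of the same kinase family as MET. It was at 7.43, 2.58 and 3.76 CPM in NF-YAcKO and at 1.26, 1.25 and 0.814 CPM in NF-YAfl/fl, without overlap, and narrowly missed the call (2.04 ± 0.44 SE, edgeR FDR = 0.0112). Stat3, a transcription factor that MET can activate, was the gene of this list called lower. It fell from 193, 167 and 166 CPM in the control libraries to 90.8, 60.2 and 72.4 CPM in NF-YAcKO (-1.24 ± 0.16 SE, edgeR FDR = 0.00189). The receptor Met and Stat3 thus moved in opposite directions at the RNA level, which did not hold for the signalling genes of this list in general. Src moved with Met, at 91.0, 84.8 and 72.9 CPM against 50.5, 55.4 and 43.2 CPM, inside the limit on the fold change (0.74 ± 0.13 SE, edgeR FDR = 0.00563). Gab1, Shc1, Ptpn11, Plcg1 and Pik3r1 were not called.

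**Figure D2:**
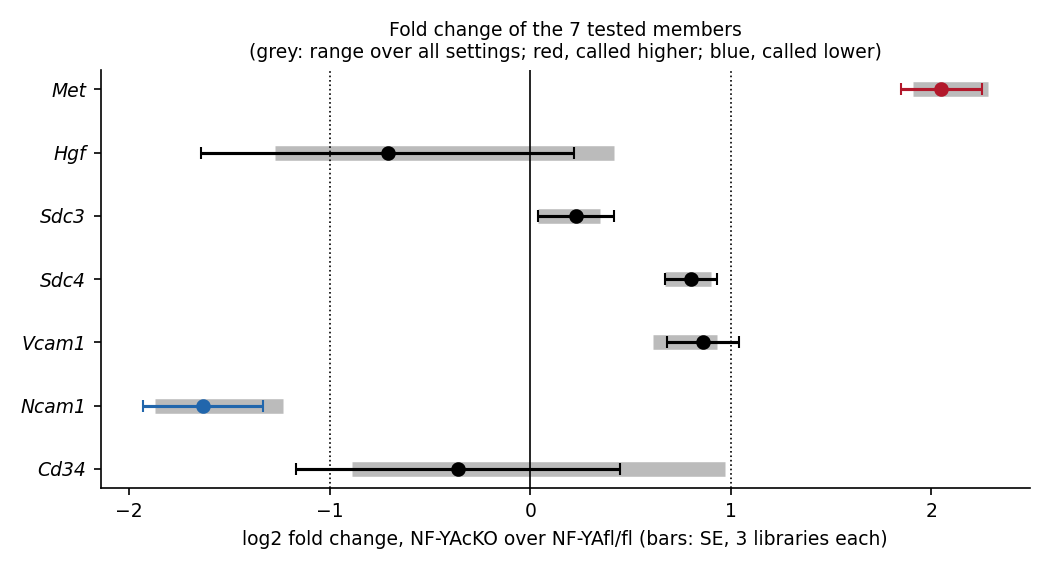
Log2 fold change of the 7 tested members, NF-YAcKO over NF-YAfl/fl, with SE bars over 3 libraries each, the limits of -1 and 1 as dotted lines and the range over all settings in grey. Met (2.05) and Ncam1 (-1.63) lie beyond the limits under every setting, Sdc4 (0.80) and Vcam1 (0.86) lie inside them, and the grey ranges of Hgf and Cd34 cross 0.

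Neither syndecan was called. Sdc3 was at 171, 211 and 202 CPM in NF-YAcKO and at 121, 185 and 193 CPM in NF-YAfl/fl. These values overlapped (log2 fold change 0.23 ± 0.19 SE, edgeR FDR = 0.374). Sdc4 was at 254, 203 and 215 CPM in NF-YAcKO and at 121, 148 and 117 CPM in NF-YAfl/fl. Its NF-YAcKO libraries all lay above the control libraries, by 1.74-fold, which passed the FDR and not the limit on the fold change (0.80 ± 0.13 SE, edgeR FDR = 0.00446). Per TPM the Sdc4 values of the genotypes overlapped, with 126, 85.7 and 103 TPM in NF-YAcKO and 59.3, 88.0 and 47.7 TPM in NF-YAfl/fl.

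The other SC syndecan genes were not called. Sdc1 was at 136 to 150 CPM in NF-YAcKO and at 47.5 to 115 CPM in NF-YAfl/fl (0.82 ± 0.29 SE, edgeR FDR = 0.0596). Sdc2 was at 84.2 to 90.6 CPM and at 81.1 to 97.4 CPM (0.00 ± 0.10 SE, edgeR FDR = 0.992). Among 33 tested genes of syndecans, glypicans and heparan sulfate enzymes beside the members, none was called higher and 3 were called lower in edgeR, and their median log2 fold change was -0.02. At an unadjusted p under 0.05 in edgeR 6 were higher and 11 lower, and DESeq2 called 1 higher. Gpc4 and Hspg2 encode core proteins that carry heparan sulfate. Gpc4, a glypican of the cell surface, was at 39.4, 35.2 and 32.1 CPM in NF-YAcKO and at 95.3, 74.3 and 99.6 CPM in NF-YAfl/fl (-1.34 ± 0.14 SE, edgeR FDR = 0.000987). Hspg2, which encodes perlecan of the basement membrane, was at 1044, 964 and 1069 CPM against 2020, 1943 and 3246 CPM (-1.23 ± 0.21 SE, edgeR FDR = 0.00531). Ndst4, an enzyme that adds sulfate to heparan sulfate chains, was at 0.351, 0.579 and 0.494 CPM against 3.14, 5.23 and 3.36 CPM (-3.02 ± 0.32 SE, edgeR FDR = 0.000979).

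Vcam1 was at 135, 91.1 and 90.4 CPM in NF-YAcKO and at 52.3, 58.9 and 63.6 CPM in NF-YAfl/fl. All NF-YAcKO libraries were above the controls, replicate 1 most of all, but the 1.81-fold difference missed both limits (log2 fold change 0.86 ± 0.18 SE, edgeR FDR = 0.0101). Its ranges did not overlap per TPM either, at 27.2 to 47.5 TPM in NF-YAcKO and 18.1 to 24.9 TPM in NF-YAfl/fl.

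The genes of the integrin partners of VCAM1 did not share the direction of Vcam1. Itga4, the alpha chain that pairs with ITGB1 to bind VCAM1, was at 3.32, 3.48 and 3.90 CPM in NF-YAcKO and at 23.2, 31.0 and 30.8 CPM in NF-YAfl/fl. This 7.94-fold difference was called under all 16 alternative settings (log2 fold change -2.99 ± 0.17 SE, edgeR FDR = 9.13e-05). Itgb1, the shared beta chain, was at 1051 to 1105 CPM and 963 to 1168 CPM (-0.01 ± 0.11 SE, edgeR FDR = 0.93). Itga9, the alpha chain of a further VCAM1-binding integrin, was not called either, at 18.2 to 20.3 CPM and 19.0 to 31.0 CPM (-0.38 ± 0.19 SE, edgeR FDR = 0.15). Itga4 was the only called gene of the 10 tested on this list beside Vcam1, whose median log2 fold change was -0.14.

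Ncam1 was the most abundant member in control cells and the member that fell. Its level was 412, 444 and 492 CPM in NF-YAcKO and 1184, 915 and 2079 CPM in NF-YAfl/fl. All NF-YAcKO libraries were below the controls, among which NF-YAfl/fl replicate 3 stood highest. The log2 fold change was -1.63 ± 0.30 (SE, edgeR FDR = 0.00613). The direction held without any 1 library (-1.87 to -1.23), but the call was lost, with an FDR of 0.0270, 0.0307 and 0.0227 (edgeR), without NF-YAcKO replicates 1, 2 and 3, and of 0.0178 (edgeR) without NF-YAfl/fl replicate 1.

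The transcripts of Ncam1 did not fall alike. The tables list 38 of them, 23 with counts, and RSEM divides the reads between them, so that the split is an estimate. NM_001081445.1, a long form of 6192 nt whose annotated protein has 848 residues, held 45.8%, 49.6% and 52.1% of the Ncam1 TPM in NF-YAcKO and 27.8%, 26.0% and 40.2% in NF-YAfl/fl. XM_011242413.1, at 6557 nt the longer of the main forms, held 31.6%, 30.6% and 25.6% against 6.73%, 8.81% and 12.2%. These long forms took a larger share in all NF-YAcKO libraries than in any control library.

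Shorter forms showed the opposite. NM_010875.3, of 4885 nt, whose annotated protein of 725 residues is the size of the form that is anchored by glycosylphosphatidylinositol, held 2.14%, 0.10% and 1.60% in NF-YAcKO and 15.1%, 14.9% and 7.76% in NF-YAfl/fl. XM_011242416.1, of 5361 nt, was listed at 0 in all NF-YAcKO libraries and at 29.4%, 29.7% and 16.3% in NF-YAfl/fl. Another short form, XM_017313201.1 of 5259 nt, did not follow and held 9.13% to 11.7% and 8.10% to 10.7% (exact permutation test, p = 0.3). For each of the other 4 transcripts the genotypes were separate, with p = 0.1 in the two-sided exact permutation test, the smallest value that 3 against 3 libraries allow.

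Taken by length, a grouping made after the shares had been seen, the 13 transcripts shorter than 5500 nt held 11.5%, 11.1% and 14.6% of the Ncam1 TPM in NF-YAcKO and 56.9%, 56.7% and 40.9% in NF-YAfl/fl. These classes are a description, with no test. In absolute terms the short forms were 13.5-fold lower, at 133 ± 5.92 TPM in NF-YAfl/fl and 9.84 ± 2.75 TPM in NF-YAcKO, while the 25 longer forms were 1.93-fold lower, at 132 ± 57.8 TPM in NF-YAfl/fl and 68.6 ± 6.96 TPM in NF-YAcKO. Within the control libraries the short forms were steady, at 135, 126 and 138 TPM. The high Ncam1 level of NF-YAfl/fl replicate 3 lay in the long forms, at 199 TPM beside 102 and 96.4 TPM in the other control libraries.

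**Figure D3:**
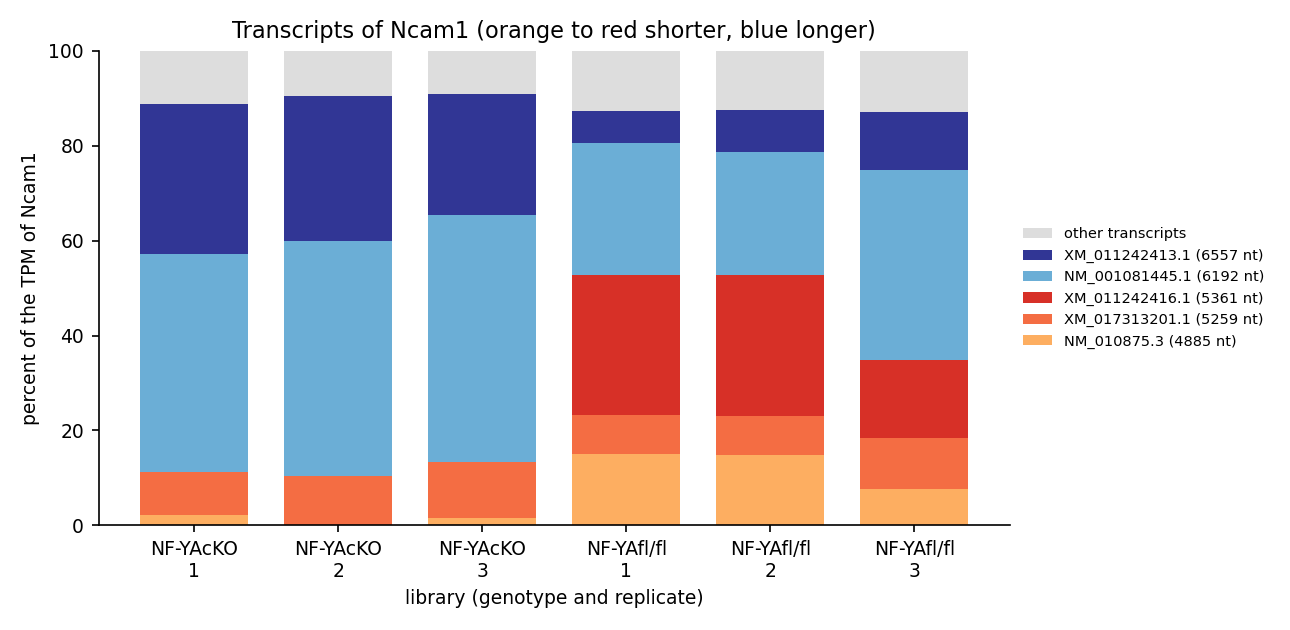
Percent of the Ncam1 TPM held by each main transcript in the 6 libraries, stacked from short (orange to red) to long (blue), with all other transcripts in grey. XM_011242416.1 and NM_010875.3 fill much of the control bars and almost nothing of the NF-YAcKO bars, where NM_001081445.1 and XM_011242413.1 fill most.

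The RNA of enzymes that build polysialic acid was lower as well. St8sia2, one of the enzymes that build polysialic acid on NCAM1, was at 34.5, 39.9 and 42.8 CPM in NF-YAcKO and at 89.2, 83.6 and 116 CPM in NF-YAfl/fl (log2 fold change -1.30 ± 0.15 SE, edgeR FDR = 0.00139). St8sia4, the other polysialyltransferase, was at 0.925, 1.40 and 0.658 CPM against 4.36, 4.67 and 13.7 CPM (-2.92 ± 0.55 SE, edgeR FDR = 0.00697). Both were below every control library in all NF-YAcKO libraries, as were 26.2% of all tested genes. Fyn, a Src-family kinase that signals from NCAM1, was at 70.7, 75.7 and 69.7 CPM against 150, 125 and 165 CPM (-1.03 ± 0.12 SE, edgeR FDR = 0.00132). Chl1, a related adhesion molecule of the L1 family, moved the other way at a low level, with 2.26, 2.24 and 2.59 CPM against 0.726, 0.654 and 0.848 CPM (1.67 ± 0.23 SE, edgeR FDR = 0.00221). Of 14 tested genes on the NCAM1 list beside Ncam1, these 4 were called, 1 higher and 3 lower, and the median log2 fold change was 0.28. Ncam2, the nearest relative, had too few counts to be tested, at no more than 0.208 CPM.

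Cd34 was nearly constant in NF-YAcKO and, like Hgf, scattered in NF-YAfl/fl. It was at 20.4, 21.1 and 21.0 CPM in NF-YAcKO and at 17.7, 58.8 and 3.53 CPM in NF-YAfl/fl. The coefficient of variation was 1.78% in NF-YAcKO and 108% in NF-YAfl/fl, where the highest library was 16.7-fold above the lowest. The log2 fold change was -0.36 ± 0.81 (SE, edgeR FDR = 0.75). It turned to 0.97 without NF-YAfl/fl replicate 2 and was -0.89 without NF-YAfl/fl replicate 3. The split between the full-length form, NM_133654.3 with 382 residues, and the form with a truncated tail, NM_001111059.1 with 325 residues, did not separate the genotypes. The full-length form held 73.9% ± 3.29 and 80.1% ± 12.5 (exact permutation test, p = 0.6).

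Hgf and Cd34 shared their order over the control libraries, replicate 2 being highest and replicate 3 lowest for both. Of 9 marker genes of fibro-adipogenic progenitors, connective tissue cells that make both Hgf and Cd34 and carry the Sca1 by which cells were removed, 7 were in the same order and Dcn and Clec3b were not. The list had a summed level of 287, 370 and 66.0 CPM in NF-YAfl/fl replicates 1 to 3 and 280 to 330 CPM in NF-YAcKO. Pdgfra, a surface receptor that defines these cells, was at 132, 147 and 21.6 CPM in the control libraries, and 1 of the 8 tested markers of the list was called higher. Of the pericyte or smooth muscle markers, Rgs5, at 12.7, 44.0 and 2.78 CPM in the same libraries, Notch3, Myh11 and Higd1b were in this order. Abcc9 (78.9, 57.7 and 71.25 CPM), Cspg4 (208, 198.5 and 93.2 CPM) and Kcnj8 were not. The part of these cells in the spread of Hgf and Cd34 was not tested.

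**Figure D4:**
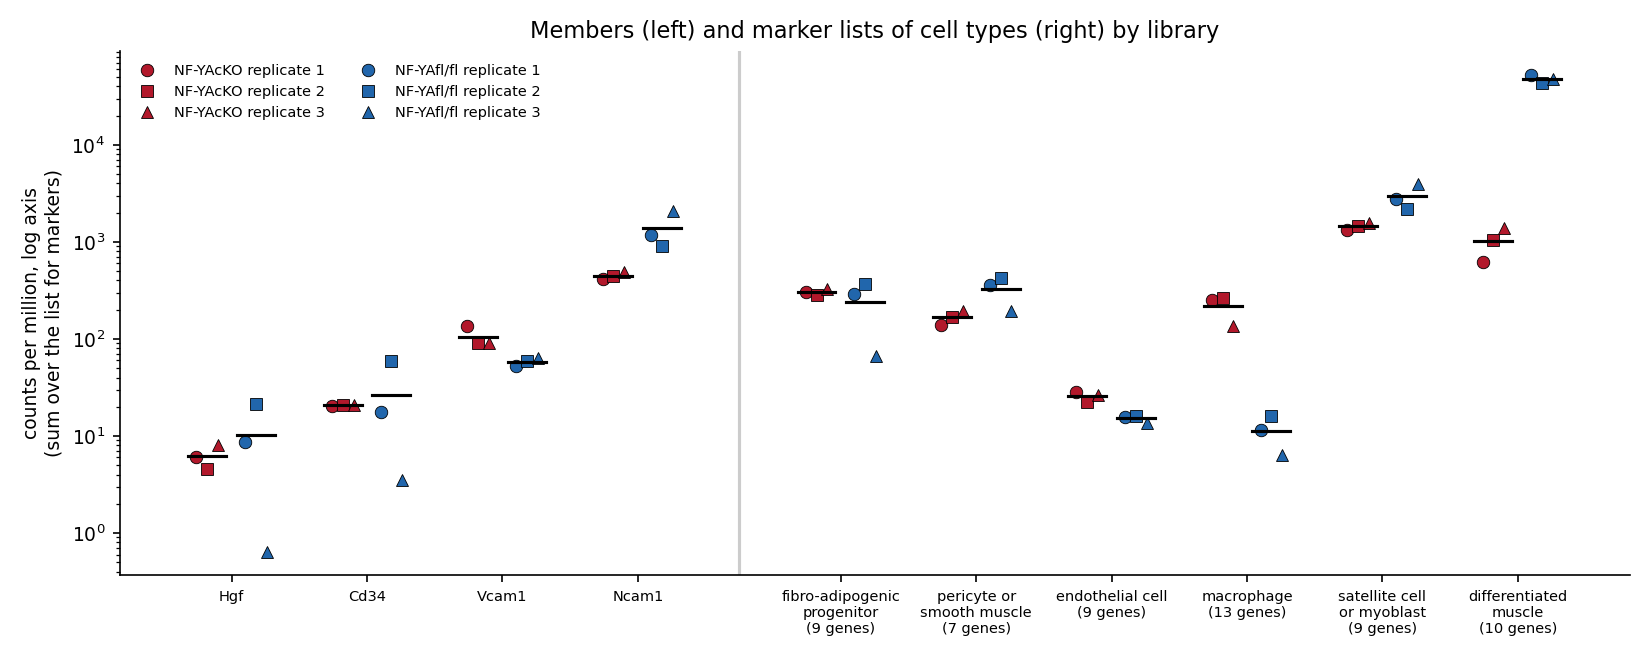
CPM (log axis) of Hgf, Cd34, Vcam1 and Ncam1, and summed CPM of marker lists of cell types, in each library (NF-YAcKO red, NF-YAfl/fl blue, black line at the mean of 3). NF-YAfl/fl replicate 3 is low for Hgf, Cd34 and the fibro-adipogenic progenitor list, and macrophage and muscle lists separate the genotypes.

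Markers of other cells also separated the genotypes. Of 13 macrophage genes, 12 were called higher in NF-YAcKO, with a sum of 137 to 266 CPM against 6.41 to 15.9 CPM. The most abundant of them, Lyz2, was at 190, 203 and 101 CPM against 4.01, 6.25 and 1.97 CPM, and Ptprc, the CD45 gene by whose product cells were removed, at 3.06, 2.80 and 1.15 CPM against 0, 0.149 and 0.170 CPM. Endothelial genes summed to 22.4 to 28.1 CPM against 13.7 to 16.2 CPM, with 2 of 9 called higher (Kdr and Esam) and 1 lower (Vwf). Schwann cell genes summed to 42.73 to 45.9 CPM in NF-YAcKO against 10.97 to 16.08 CPM in NF-YAfl/fl. Of the 6 tested, 5 were called higher and none lower. The part of these cell types in the levels of Met and Vcam1, which lay higher in the same libraries, was not tested. All 10 tested genes of differentiated muscle were called lower, with a sum of 620 to 1396 CPM against 43620 to 52920 CPM, mostly from Ttn, and their part in the fall of Ncam1 and Itga4 was not tested.

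Podxl, which encodes podocalyxin, the nearest relative of CD34, was at 10.24, 10.04 and 10.74 CPM in NF-YAcKO and at 2.52, 2.88 and 3.60 CPM in NF-YAfl/fl (log2 fold change 1.78 ± 0.18 SE, edgeR FDR = 0.000853). The RNA of proteins that link podocalyxin to the cytoskeleton moved in the same direction. Ezr, which encodes ezrin, was at 136, 119 and 102 CPM against 29.9, 41.3 and 34.2 CPM (1.75 ± 0.16 SE, edgeR FDR = 0.000567). Slc9a3r1, a scaffold that binds ezrin, was at 41.1, 29.3 and 31.5 CPM against 9.71, 9.75 and 11.8 CPM (1.70 ± 0.17 SE, edgeR FDR = 0.000746). All 3 were above every control library in each NF-YAcKO library, as were 29.1% of all tested genes. Podxl2, the other relative of CD34, was not called, at 1.55 ± 0.162 CPM and 2.48 ± 0.471 CPM (SD) (-0.68 ± 0.23 SE, edgeR FDR = 0.0568). Of the 7 tested genes of the CD34 list beside Cd34, these 3 were called, and 4 had a positive log2 fold change. The median, 0.91, was the value of Emcn, at 0.763 and 0.406 CPM (edgeR FDR = 0.371). Cd164, the most abundant gene of the list, went the other way, at 246, 226 and 227 CPM against 432, 325 and 466 CPM. It passed the FDR and not the limit on the fold change (-0.81 ± 0.15 SE, edgeR FDR = 0.006).

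Calcr was close to absent from the cultured SCs of either genotype. It had 2, 1 and 3 counts in the NF-YAcKO libraries and 1, 0 and 1 counts in the NF-YAfl/fl libraries. No library was above 3 counts, the upper limit that a count of 0 allows, which is 0.0705 to 0.115 CPM at these depths (counting error only), and no fold change is given. Calcr thus read at no more than 0.0705 CPM in any library, and a difference within that range was not detectable at this depth.

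The RNA of the related receptor and of its partner proteins was detected. Calcrl, which pairs with RAMP proteins to bind adrenomedullin and CGRP, was at 24.2 to 29.2 CPM in NF-YAcKO and at 18.9 to 33.3 CPM in NF-YAfl/fl (log2 fold change 0.11 ± 0.21 SE, edgeR FDR = 0.709). Ramp1 was at 0.319 to 0.796 CPM against 1.40 to 2.41 CPM (-1.55 ± 0.40 SE, edgeR FDR = 0.022), and Ramp3 at 1.27 to 1.79 CPM against 1.95 to 4.61 CPM (-1.01 ± 0.39 SE, edgeR FDR = 0.0793). Ramp2 was at 2.66 to 3.86 CPM against 0.416 to 2.04 CPM (1.48 ± 0.52 SE, edgeR FDR = 0.0603). None of these 3 was called. In each case the ranges of the genotypes were separate, beside 29.1% of all tested genes above and 26.2% below without overlap. Calcb, which encodes a CGRP peptide, was the called gene of the 11 tested on this list, at 2.20, 1.23 and 0.705 CPM against 0.0765, 0.0297 and 0.238 CPM (3.56 ± 0.72 SE, edgeR FDR = 0.00888). The median log2 fold change of the list was 0.08.

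**Figure D5:**
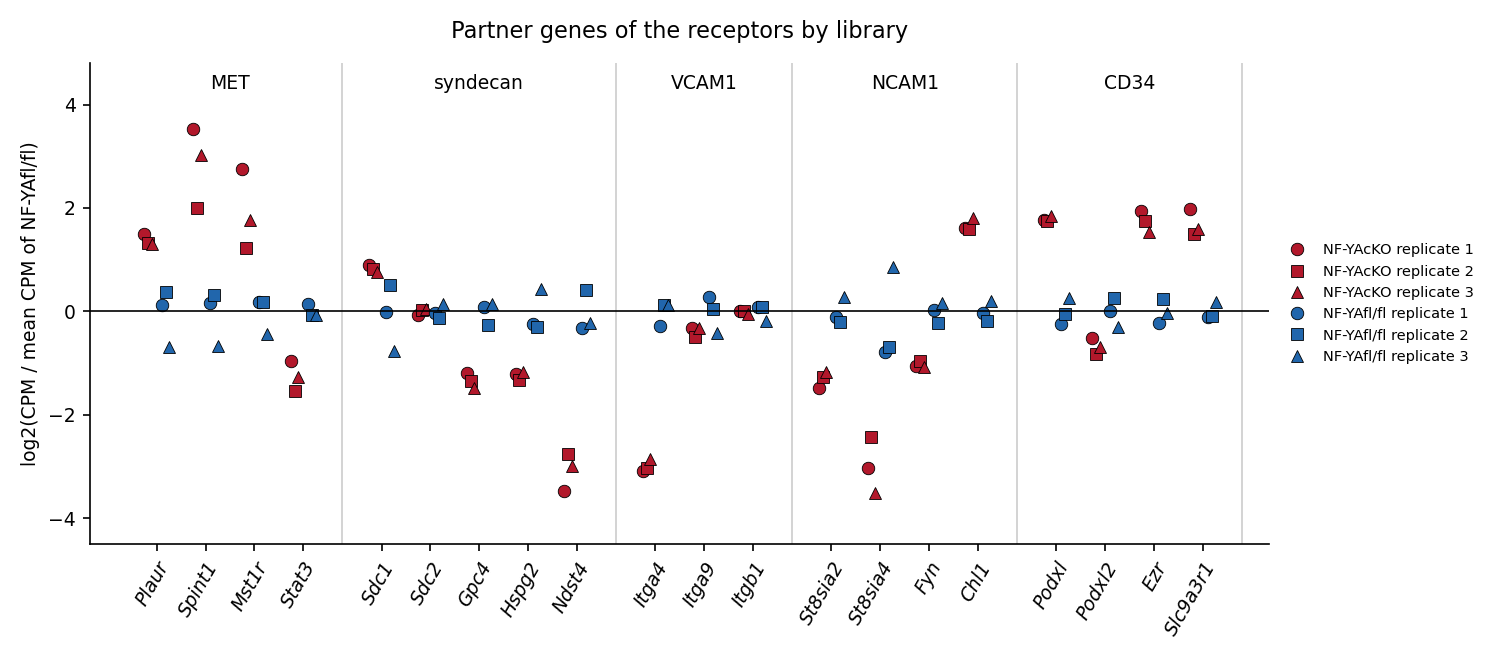
Log2 of the CPM of partner genes over their mean in NF-YAfl/fl, in each library (NF-YAcKO red, NF-YAfl/fl blue), grouped by the receptor they belong to. Itga4, Ndst4 and St8sia4 lie near -3 in NF-YAcKO while Podxl, Ezr and Slc9a3r1 lie between 1 and 2, and Itgb1 and Sdc2 stay near 0.

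Over the 7 lists together, 132 genes beside the members were tested, and 8 (6.06%) were called higher and 12 (9.09%) lower, near the 4.65% and 7.67% of all tested genes. The call held whichever library was left out for 8 of these 20 genes (Cdh15, Ezr, Gpc4, Itga4, Itm2a, Ndst4, Podxl and Slc9a3r1). It was lost without at least 1 library for the other 12, with the largest FDR for Calcb (0.0394 in edgeR). Leaving out a library moved the number called higher to 3 without NF-YAcKO replicate 1 or 3, to 4 without NF-YAcKO replicate 2 or NF-YAfl/fl replicate 1, and to 13 without NF-YAfl/fl replicate 3, and the number called lower to 7 without NF-YAcKO replicate 2.

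The genes most like each member over the 6 libraries were found by Pearson's r of log2 CPM, as a description in which every point pair shares the same libraries and depths. Each r was taken over both genotypes together, so a difference between the genotypes that a pair of genes shares raises it. Met was most like Chaf1a and Asf1b, which encode chaperones of histones (r = 0.999 for both), and like Arrb2, and 132 genes had an r above 0.99 with it. Ncam1 was most like Bcl6, Calcoco1 and Pacs2 (r from 0.999), with 110 such genes. Hgf was most like Aqp5, Arrb1 and Aacs (r from 0.995), and Cd34 like Slc5a3, S1pr3 and Gas2 (r from 0.990). Sdc4 was most like 1110012L19Rik, Orai3 and Gnptab (r from 0.995). The values were lower for Sdc3, with Ank3, Prpf38b and Pias2 (r from 0.972), and for Vcam1, with Relb, Lats1 and Fam53a (r from 0.980), and neither had a gene above 0.99.

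Reads of genes that lie on the opposite strand within a member could be counted with it, since strand use in the counting is not given in the sources used here. Antisense genes overlap Sdc3, Vcam1, Ncam1 and Cd34, and of them Gm11149 in Ncam1 and Gm16897 in Cd34 have entries of their own, at 0.338 to 3.26 CPM and at 0.170 to 1.22 CPM.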

How the data were processed

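The genotype and replicate number of each library were taken from its label. The authors prepared stranded total RNA libraries and used Bowtie2 (mm10) and then RSEM on the paired reads. Expected counts, deposited for every gene and transcript, are estimates without normalisation. The TPM values, as deposited, account for transcript length and sum to the same total in each library, and the percent of a gene's TPM held by each transcript was also given by the authors. RSEM shares reads between transcripts and between similar genes. FPKM columns were not used.

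Expected counts were rounded, and the 17348 of 35976 genes that exceeded 10 counts in 2 or more libraries were tested with edgeR 4.0.16 in R 4.3.3 (TMM, quasi-likelihood test, all 6 libraries, genotype only). The procedure was tested on simulated data. Benjamini-Hochberg adjustment was over all tested genes. CPM used TMM library sizes. Transcript shares were compared with two-sided exact permutation tests (scipy 1.17.1), for transcripts with at least 10 percent of the gene's TPM in 1 library. Results were recomputed without rounding, without a filter and with filterByExpr, with DESeq2 1.42.0 and with edgeR on DESeq2 size factors, with limma 3.58.1 on log2(TPM + 1) and log2(TPM + 0.1), other limits, a replicate block and each library left out. Gene positions are from GENCODE on GRCm38. Genes beside the members were named by rule: the called genes of each pathway list where a direction had 4 or fewer, fixed partners and relatives of the members, marker and label checks, and for each member the 3 most similar genes whose mean reached 10 CPM. The members and lists were chosen with earlier results of these data known. Ages are those of the labels.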

Additional observations from a re-analysis of the deposited data

How the results depend on the processing

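Met was called higher and no other member was, under all 16 alternatives. Ncam1 was lower under all of them, and the number of members called lower was 0 when edgeR tested for a change beyond a log2 of 1 (FDR = 0.111, 1 member at an unadjusted p under 0.05; DESeq2 and limma each called 1) and 0 to 1 with a library left out. Cd34 reversed to 0.17 and 0.32 with limma on log2(TPM + 1) and log2(TPM + 0.1) and to 0.35 with the replicate block, and ranged from -0.89 to 0.97 with a library left out. Hgf reversed to 0.08 with limma on log2(TPM + 0.1) and ranged from -1.27 to 0.42 with a library left out. The cause was not tested. Of the pathway genes, 8 were called higher, but 14 with DESeq2, 3 and 4 with limma on log2(TPM + 1) and log2(TPM + 0.1), 15 at an FDR of 0.05, 1 when edgeR tested for a change beyond a log2 of 1, 5 with the replicate block, and 3 to 13 with a library left out. The number called lower, 12, became 20 with DESeq2, 19 at an FDR of 0.05, 4 when edgeR tested for a change beyond a log2 of 1 and 7 to 18 with a library left out. The number of promoter windows with the box went from 1 to 0 with its longer form.

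Libraries with the same number were not treated as paired, since the labels do not say that they share a batch. Their deviations correlated with r = 0.165, -0.0693 and 0.0527, and not every library correlated best with its own number. With 3 libraries per genotype, these correlations cannot settle whether the libraries were paired. With the replicate block, Met had a log2 fold change of 2.08 and Ncam1 of -1.55, both still called. The biological variation was 0.105 in NF-YAcKO and 0.310 in NF-YAfl/fl as a coefficient. The tests cover the spread of 3 libraries per genotype, the transcript shares are estimates without read-level checks, and Calcr is limited by depth.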

Other observations

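Among 31 tested genes of a list of other SC surface proteins, 1 was called higher and 4 lower, with a median log2 fold change of -0.29. The list also held Pdgfra, Ly6a, Tie1, Tek and Notch3, which are on the marker lists of other cell types used here. None of these was called, but they enter the median, which is therefore not that of SC proteins alone. Cdh15, which encodes M-cadherin of the SC and myoblast membrane, was at 45.9, 48.1 and 50.4 CPM in NF-YAcKO and at 181, 137 and 178 CPM in NF-YAfl/fl (log2 fold change -1.78 ± 0.13 SE, edgeR FDR = 0.000272). Itm2a, a membrane protein of myogenic cells, was at 19.4, 19.5 and 22.5 CPM against 112, 69.7 and 117 CPM (-2.28 ± 0.21 SE, edgeR FDR = 0.000583). Dag1, which encodes the dystroglycan that joins the fibre membrane to laminin, was at 112, 108 and 117 CPM against 319, 231 and 391 CPM (-1.48 ± 0.19 SE, edgeR FDR = 0.00172). Tspan33, a tetraspanin, was at 1.44, 2.78 and 4.47 CPM against 13.8, 17.7 and 23.0 CPM (-2.64 ± 0.41 SE, edgeR FDR = 0.00352). Cd24a, a small anchored glycoprotein, was the gene called higher, at 15.8, 20.5 and 14.5 CPM against 4.43, 4.43 and 1.90 CPM (2.24 ± 0.34 SE, edgeR FDR = 0.00316). The calls of Cdh15 and Itm2a held whichever library was left out. Those of Dag1 were lost without NF-YAcKO replicate 1 or 2, those of Tspan33 without NF-YAcKO replicate 2 or NF-YAfl/fl replicate 1, and those of Cd24a without any 1 NF-YAcKO library or NF-YAfl/fl replicate 1.

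The 7 pericyte or smooth muscle genes summed to 140 to 193 CPM in NF-YAcKO against 196 to 427 CPM in NF-YAfl/fl, with 1 of 5 tested called lower, and the 9 SC or myoblast genes to 1333 to 1562 CPM against 2207 to 3917 CPM, with Des and Cdh15 called lower. Within that list Pax7 (log2 fold change 0.94, edgeR FDR = 0.00624) and Myf5 (0.80, edgeR FDR = 0.272) had higher means in NF-YAcKO and were not called.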
